A study of Mus musculus with 12 samples.

Results

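The genes described here keep reactive oxygen species in check or produce them: 40 genes that encode peroxiredoxins, enzymes of the glutathione system, superoxide dismutases and catalase, NRF2 with its repressor and some of its targets, subunits of NADPH oxidase and a methionine sulfoxide reductase. They were chosen by name, as every array probe whose gene symbol equals a listed symbol, out of 27248 gene symbols on the array. All 40 were measured, by 66 probes, and all 40 passed the filter on dim signal, as did 16560 of all symbols. Messenger RNA came from heart muscle of 12 male C57BL6/J mice aged 5 months, 1 array per mouse, in 4 groups of 3. Control mice (C) and control mice given the monoamine oxidase inhibitor pargyline (C + P) were compared with mice made diabetic by streptozotocin, without (D) and with pargyline (D + P). Streptozotocin, which destroys insulin-secreting beta cells, was injected at 50 mg/kg per day for 5 days, and pargyline at 50 mg/kg per day for 12 weeks. Both agents reach the whole animal.

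Superoxide is converted to hydrogen peroxide by superoxide dismutases, and the peroxide is removed by catalase, by glutathione peroxidases and by peroxiredoxins, which are recharged with electrons from glutathione or thioredoxin. NRF2 is a transcription factor that KEAP1 holds at a low level until oxidants or electrophiles modify it, after which NRF2 switches on genes of glutathione synthesis and detoxification through antioxidant response elements in their promoters. Monoamine oxidase, the enzyme that pargyline blocks, forms hydrogen peroxide at the outer mitochondrial membrane, while NADPH oxidases form superoxide or peroxide as their main product.

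Where an antioxidant response element can be seen in a promoter it is shown, because it is the sequence through which NRF2 reaches its targets. The core searched was TGACNNNGC on both strands (the opposite strand reads GCNNNGTCA), in the 250 bases before and 50 after the transcription start of RefSeq genes on GRCm38.p6. The table held 33 of the 40 genes, and 7 of these, or 21.2%, had the core. The core was present for 14% of all gene symbols listed there and in 12.4% of all 32851 promoters. Of the 7 genes, *Srxn1* carried the core after its start, at position 29, and is not printed. The other windows are printed 5′ to 3′ on the gene's own strand, with the core in capitals and up to 30 bases on either side. Positions count from the transcription start, to the first base of the core.
*Prdx1*, position -133, chr4:116685436-116685504, plus strand: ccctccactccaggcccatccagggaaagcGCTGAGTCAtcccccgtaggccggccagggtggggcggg
*Gclm*, position -134, chr3:122245393-122245461, plus strand: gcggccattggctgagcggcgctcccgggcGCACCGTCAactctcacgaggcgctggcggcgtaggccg
*Gstm5*, position -42, chr3:107895782-107895850, plus strand: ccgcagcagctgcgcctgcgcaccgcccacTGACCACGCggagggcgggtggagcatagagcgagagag
*Mgst1*, position -56, chr6:138140441-138140509, plus strand: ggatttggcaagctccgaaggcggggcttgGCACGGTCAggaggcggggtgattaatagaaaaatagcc
*Sod1*, position -56, chr16:90220676-90220744, plus strand: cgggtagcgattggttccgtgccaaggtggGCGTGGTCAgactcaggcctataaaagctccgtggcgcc
*Nfe2l2*, position -240, chr2:75704865-75704913, minus strand: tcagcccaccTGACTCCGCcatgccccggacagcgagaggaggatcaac
A match is a description of letters in this window and not a site shown to be bound.

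The values below are normalized log2 intensities of the brightest probe of each gene that passed the filter, and differences are log2 changes tested with limma across all 30859 probes that passed it. To pass, a probe needed signal flagged positive and significant by the scanner software in 50% or more of each group. Positions of probes are those of the files, in mm9. Exon or UTR is not annotated for them. The untreated groups C and D shared 1 slide and the pargyline groups the other, so that pargyline and slide cannot be told apart, whereas each diabetes comparison lay within a slide. Repeated spots of a probe scattered by a coefficient of variation of 23% on D replicate 1, 15% on D + P replicate 1 and 14.3% on C + P replicate 1, against 3.72% to 10% on the others. Those 3 arrays sat in column 1 of their slides. The 8 cardiomyocyte markers were well above background on all 12 arrays. In bulk tissue, fewer cells of a type and less RNA per cell cannot be told apart.

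None of the 40 genes passed an adjusted p of 0.05 in any of the 6 contrasts. The smallest adjusted p was 0.342 in D versus C, 0.313 in D + P versus C + P, 0.24 in the diabetes change averaged over pargyline, 1.00 in C + P versus C, 0.358 in D + P versus D and 0.612 in the interaction, which is the diabetes change with pargyline minus that without it. Calls were rare in the whole table too. Of the 16560 genes, the share past the adjusted threshold was 0.00604% in D versus C, 0.0785% in D + P versus C + P, 0.151% in the averaged diabetes change, 0.0543% in C + P versus C, 0% in D + P versus D and 0.0121% in the interaction. In D + P versus D, 4099 of all probes had an unadjusted p under 0.05 in limma, and the methods' t-test called 1 probe after Bonferroni correction, no member among it.

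At an unadjusted p under 0.05, 2 of the 40 were higher and 1 lower in D versus C, where 5.3% and 4.89% of all genes were. In D + P versus C + P 2 were higher, against 3.71% of all genes, and 0 lower, against 4.12%. The averaged diabetes change gave 3 higher and 1 lower, against 6.15% and 5.53%. For C + P versus C there were 1 higher and 2 lower, against 2.05% and 2.38%. For D + P versus D there were 0 higher and 1 lower, against 5.64% and 6.46%, and for the interaction 1 higher and 0 lower, against 3.36% and 2.89%. The methods' t-test gave 4, 2, 3 and 1 members at an unadjusted p under 0.05 in D versus C, D + P versus C + P, C + P versus C and D + P versus D, where the same test gave 12%, 6.99%, 8.27% and 8.56% of all genes. No member passed it after Benjamini-Hochberg or Bonferroni correction.

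The changes of the 40 genes were small in size. The median absolute change was 0.13 in the averaged diabetes contrast, against 0.16 over all genes, and 0.20 against 0.23 in D versus C. The median signed change was -0.01 against 0.00 in the averaged contrast, with 17 genes higher and 23 lower. For the averaged diabetes change, the 95% interval lay wholly within 0.5 of zero on the log2 scale for 25 of the 40 genes and within 1 for 39, so that a log2 change of 1 lay outside the interval of these 39 messages. In D versus C alone the counts were 11 and 35. The spread between mice was also modest, with a median SD of 0.11 in C, 0.18 in C + P, then 0.20 in D and 0.17 in D + P, against 0.15, 0.25, 0.30 and 0.26 over all genes. These comparisons are not matched for signal. Of the 40 genes 38 were well above background on all 12 arrays, whereas 13146 of the 16560 were so in 50% or more of each group. The part of signal level in the smaller changes and spread was not tested.

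**Figure D1:**
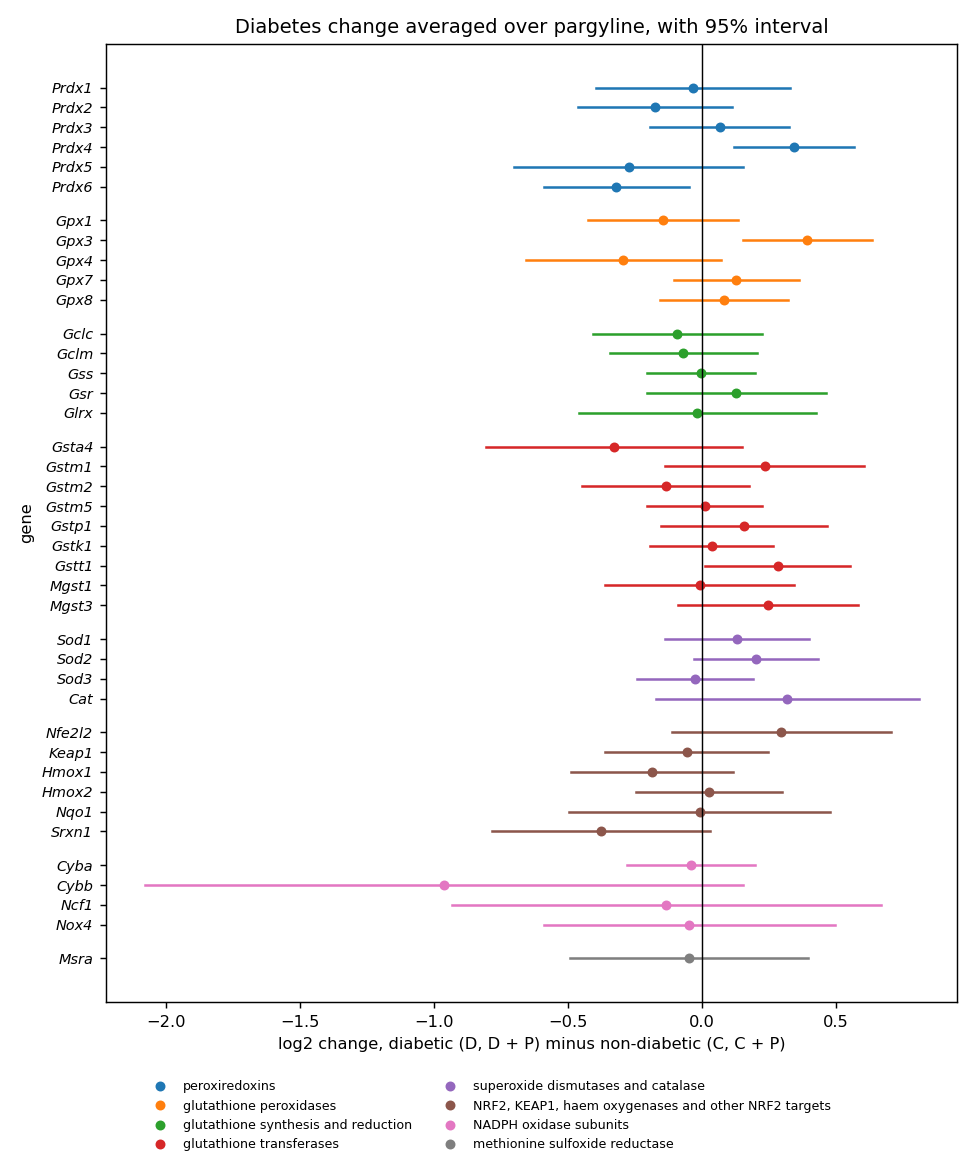
Log2 change of the 40 genes between diabetic (D, D + P) and non-diabetic (C, C + P) hearts, averaged over pargyline, on the x axis, with a row per gene coloured by family. Points are estimates and lines 95% intervals from limma without correction for the number of genes. The intervals of *Prdx4*, *Gpx3* and *Gstt1* lie above 0, that of *Prdx6* below, and that of *Cybb*, the widest, runs from -2.08 to 0.15.

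Among the 6 peroxiredoxins, the averaged diabetes change ran from -0.32 for *Prdx6* to 0.34 for *Prdx4*. *Prdx4*, the peroxiredoxin of the endoplasmic reticulum (probe at chrX:151764882-151764941), had log2 intensities of 8.75, 8.86 and 8.75 in C and 9.09, 9.32 and 9.35 in D. With pargyline the values were 8.86, 8.98 and 8.64 in C + P and 9.02, 9.06 and 9.07 in D + P. All 6 diabetic hearts lay above all 6 non-diabetic hearts. The difference was 0.47 ± 0.14 (SE) in D versus C, a 1.38-fold higher level (unadjusted p = 0.00822, adjusted p = 0.342 in limma), and 0.22 with pargyline. Averaged, it was 0.34 ± 0.10 (adjusted p = 0.256).

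*Prdx6*, a peroxiredoxin with a single active-site cysteine that draws on glutathione and also has phospholipase activity (chr1:163171138-163171197), measured 14.00, 13.88 and 13.95 in C and 13.44, 13.56 and 13.36 in D. These groups did not overlap. In C + P it measured 13.35, 13.81 and 13.80 and in D + P 13.39, 13.36 and 13.75, which overlapped. The D minus C difference was -0.49 ± 0.17 (SE; adjusted p = 0.392 in limma). A second *Prdx6* probe, which also matches *Prdx6b*, gave -0.10 for the same comparison.

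*Prdx1*, a cytosolic peroxiredoxin and an NRF2 target whose promoter is printed above (chr4:116372029-116372088), had the smallest adjusted p among the brightest probes of the 40 genes in D + P versus D, which did not pass the threshold. It measured 14.84, 14.44 and 14.29 in D and 14.19, 13.46 and 14.32 in D + P, against 14.53, 14.36 and 14.34 in C and 14.23, 14.22 and 14.04 in C + P. The 2 diabetic groups overlapped, and D replicate 1 and D + P replicate 2 were the extremes. The difference was -0.53 ± 0.23 (SE; adjusted p = 0.358 in limma), -0.38 without D replicate 1, -0.27 without D + P replicate 2, and -0.03 and -0.17 on its other tested probes. *Prdx2*, *Prdx3* and *Prdx5*, the last 2 with mitochondrial forms, had averaged diabetes changes of -0.17, 0.07 and -0.27. That of *Prdx2* was -0.10 without D + P replicate 1, and that of *Prdx3* 0.02 without D replicate 2. The *Prdx5* change includes D replicate 1, at 14.28, where the other 11 arrays lay between 15.23 and 15.58. Without it the change was -0.08. A second tested *Prdx5* probe gave -0.29 on average, with -0.00 in D versus C and -0.58 in D + P versus C + P.

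Of the 5 glutathione peroxidases, *Gpx3*, the secreted plasma form (chr11:54723436-54723495), had the smallest p of the 40 genes in the averaged diabetes contrast. It measured 10.57, 10.76 and 10.61 in C, 10.86, 10.63 and 10.48 in C + P, then 10.97, 11.07 and 11.16 in D, and 10.87, 11.02 and 11.18 in D + P. The highest non-diabetic heart, at 10.86, lay just under the lowest diabetic heart, at 10.87. The change was 0.42 ± 0.15 (SE) without and 0.37 ± 0.15 with pargyline. Averaged, it was 0.39 ± 0.11, or 1.31-fold (unadjusted p = 0.00432, adjusted p = 0.24 in limma). *Gpx3* and *Prdx4* were the 2 of 40 genes, or 5%, for which D did not overlap C and D + P did not overlap C + P, in the same direction. That was so of 2.92% of all genes.

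*Gpx7*, a peroxidase of the endoplasmic reticulum (chr4:108073303-108073362), was lowest in C. It measured 7.68, 7.49 and 7.39 there, 8.10, 7.76 and 7.80 in C + P, then 7.74, 7.91 and 7.89 in D and 7.81, 7.78 and 7.86 in D + P. The C group lay below the other 9 hearts. C + P minus C was 0.37 ± 0.15 (SE; adjusted p = 1.00 in limma) and D minus C was 0.32. *Gpx1*, the cytosolic form, *Gpx4*, which reduces lipid peroxides in membranes, and *Gpx8* had averaged diabetes changes of -0.14, -0.29 and 0.08. That of *Gpx1* was -0.06 without C replicate 1, and that of *Gpx8* 0.04 without C + P replicate 3. The lowest *Gpx4* value, 13.89, was again that of D replicate 1, and without it the change was -0.17.

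In glutathione synthesis and reduction, 5 genes were measured. *Gclm* encodes the modifier subunit of glutamate-cysteine ligase, the rate-limiting enzyme of glutathione synthesis (probe at chr3:121967737-121967796, promoter above). It measured 10.75, 10.44 and 10.60 in C and 10.24, 10.31 and 10.06 in C + P, which did not overlap. In D it measured 10.32, 10.54 and 10.71 and in D + P 10.02, 9.98 and 10.42. C + P minus C was -0.39 ± 0.18 (SE; adjusted p = 1.00 in limma), D + P minus D was -0.38, and the averaged diabetes change was -0.07. All 3 hearts of C + P lay on another slide than those of C. *Gclc*, the catalytic subunit, *Gss*, glutathione synthetase, *Gsr*, glutathione reductase, and *Glrx*, a glutaredoxin, had averaged diabetes changes of -0.09, -0.00, 0.13 and -0.02. That of *Gsr* was 0.03 without D replicate 1. *Gss* had the smallest spread of the 40 genes, with a median SD within groups of 0.08.

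The 9 glutathione transferases, which join glutathione to electrophiles, included *Gstt1* of the theta class, the member with the smallest p in D + P versus C + P (chr10:75246560-75246619). It measured 10.69, 10.50 and 10.59 in C, 10.20, 10.13 and 10.12 in C + P, then 10.76, 10.46 and 10.17 in D, and 10.64, 11.003 and 10.89 in D + P. C + P lay below C and below D + P without overlap, while D spread over the range between. D + P minus C + P was 0.70 ± 0.17 (SE), a 1.62-fold higher level (unadjusted p = 0.00216, adjusted p = 0.313 in limma). D minus C was -0.13, and the interaction was 0.83 ± 0.25 (unadjusted p = 0.00645, adjusted p = 0.612). C + P minus C was -0.45 ± 0.17 (adjusted p = 1.00).

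The 2 theta-class genes among the other glutathione genes, *Gstt2* and *Gstt3*, lie next to *Gstt1* on chromosome 10. *Gstt2* had the largest interaction of that list, and *Gstt3* was named after its values were seen. *Gstt3* (chr10:75236966-75237025) measured 8.47, 8.29 and 8.32 in C, 8.001, 8.004 and 8.02 in C + P, then 7.89, 8.33 and 8.06 in D and 8.57, 8.58 and 8.49 in D + P. *Gstt2* (chr10:75295913-75295972) measured 9.50, 9.61 and 9.14 in C, 6.91, 8.92 and 9.03 in C + P, then 9.07, 8.84 and 7.85 in D and 9.79, 9.78 and 9.76 in D + P. With all arrays in, D + P had the highest mean and C + P the lowest in all 3 genes. Without C + P replicate 1, C + P averaged 8.98 for *Gstt2*, above D at 8.59, and without D replicate 2, D averaged 7.98 for *Gstt3*, below C + P at 8.01. The interaction was 0.80 ± 0.21 (SE; adjusted p = 0.565 in limma) for *Gstt3* and 2.32 ± 0.71 (adjusted p = 0.639) for *Gstt2*, each with an unadjusted p under 0.05. Within 100 kb of the *Gstt1* probe 5 genes were tested, and the 2 that flank the theta class, *Ddt*, a tautomerase, and *Mif*, the cytokine macrophage migration inhibitory factor, had interactions of -0.12 and -0.19 (unadjusted p = 0.587 and 0.352). The 3 theta-class genes are similar in sequence, and whether their probes cross-hybridise was not tested.

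**Figure D2:**
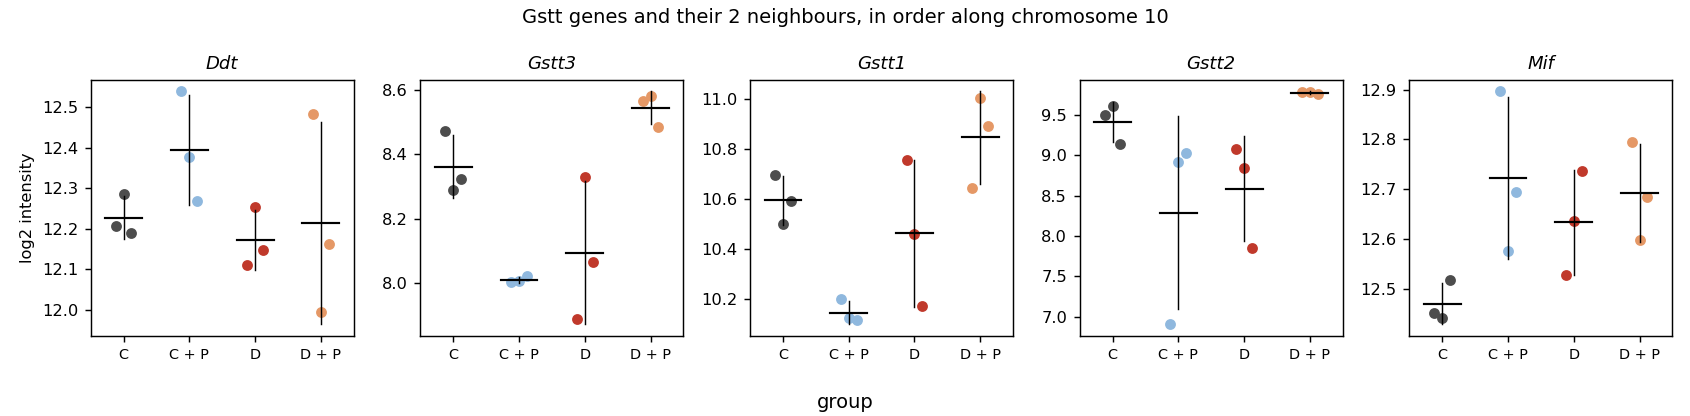
Normalized log2 intensity (y axis, a scale per gene) of the 3 theta-class glutathione transferase genes and the 2 genes that flank them, in order along chromosome 10, for the 4 groups on the x axis. Points are arrays, horizontal lines group means and vertical lines SD (n = 3). The means of *Gstt3*, *Gstt1* and *Gstt2* are lowest in C + P and highest in D + P with all arrays in, and C + P replicate 1 is the low point of *Gstt2* at 6.91.

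The other 8 transferases had averaged diabetes changes from -0.33 for *Gsta4*, which clears the lipid aldehyde 4-hydroxynonenal, to 0.25 for the microsomal *Mgst3*. The *Gsta4* change includes D + P replicate 2, at 7.89, where the other 11 arrays lay between 8.90 and 9.54, and is -0.12 without it. The *Mgst3* value is 0.12 without D replicate 1, at 13.59 where the others lay between 12.63 and 12.99. *Gstm1* measured 0.24 on its brightest probe (0.10 without D replicate 1), for which the files give a position on chromosome 5, and 0.37 on a probe placed on chromosome 3, where the other 2 *Gstm* members lie. The probe for *Gstp1* also matches its near copy *Gstp2*. *Gstm5* and *Mgst1*, whose promoters carry the core printed above, measured 0.01 and -0.01.

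Of the superoxide dismutases and catalase, 4 genes, none passed the threshold in the averaged diabetes contrast, where 3 had values above 0 and the median was 0.17. *Cat*, peroxisomal catalase (chr2:103294660-103294719), measured 10.72, 10.54 and 10.41 in C, 10.85, 10.35 and 9.84 in C + P, then 10.76, 11.18 and 10.98 in D and 10.24, 10.21 and 11.25 in D + P. D lay above C without overlap, but C + P and D + P each spanned about a unit. The averaged change was 0.32 ± 0.22 (SE; adjusted p = 0.616 in limma). It was 0.15 without D + P replicate 3 and 0.19 without C + P replicate 3. *Sod2*, the mitochondrial dismutase, was 0.20 higher with an interval from -0.03 to 0.43. *Sod1*, the cytosolic form, was 0.13 higher (0.06 without D replicate 1), and *Sod3*, the extracellular form, was at -0.02.

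NRF2, KEAP1, the haem oxygenases and other NRF2 targets made up 6 genes, of which 2 were higher and 4 lower in the averaged diabetes contrast. *Srxn1*, sulfiredoxin, which repairs over-oxidised peroxiredoxins (chr2:151937009-151937068), had the largest averaged change of the 6 with all arrays in. It measured 10.05, 9.62 and 9.91 in C, 10.11, 10.15 and 9.92 in C + P, then 9.51, 9.59 and 9.83 in D and 10.02, 9.68 and 8.88 in D + P. Both pairs overlapped, and the lowest value was that of D + P replicate 3. The averaged change was -0.38 ± 0.18 (SE; adjusted p = 0.476 in limma), and -0.22 without that array.

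*Nfe2l2*, the gene of NRF2, was 0.30 higher on average, with an interval from -0.11 to 0.71. *Keap1* was at -0.06, *Hmox1*, the inducible haem oxygenase, at -0.19, *Hmox2*, the constitutive form, at 0.03, and *Nqo1*, a quinone reductase often used as an NRF2 readout, at -0.01. Without D replicate 1 *Keap1* was at 0.02, and without C replicate 1 *Hmox1* was at -0.11. The *Nqo1* interval ran from -0.49 to 0.48. Of the NRF2 targets with the core in their printed promoter, *Gclm* and *Prdx1* had averaged changes of -0.07 and -0.03. A message level says nothing of NRF2 protein, which is controlled largely by degradation.

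Of the 4 NADPH oxidase genes, *Cybb*, *Ncf1* and *Nox4* had the widest spread within groups of all 40 genes. *Cybb* encodes NOX2, the catalytic subunit of phagocytes (chrX:9014314-9014373). It measured 6.56, 6.01 and 5.68 in C, 6.82, 6.20 and 5.72 in C + P, then 3.08, 6.05 and 6.04 in D and 4.52, 5.82 and 5.70 in D + P. Signal was well above background on 3 of 3 arrays in C and C + P and on 2 of 3 in D and D + P. The averaged change was -0.96 ± 0.50 (SE; adjusted p = 0.504 in limma). It was -0.47 without D replicate 1, which holds the lowest value, and -0.76 without D + P replicate 1. The other D hearts, at 6.05 and 6.04, lay within the range of C. For a second *Cybb* probe, signal well above background was seen in 1 of 3 hearts of C and of D and in none of C + P and D + P, so that its change is not given. *Ncf1*, the p47 organiser subunit, was at -0.13 with an interval from -0.93 to 0.67 and a range from -0.46 to 0.08 when single arrays were left out, and was well above background on 7 of 12 arrays. *Cyba*, the p22 subunit shared by several oxidases, was at -0.04. *Nox4*, the form of cardiac and other non-phagocytic cells, was at -0.05 on a probe for an Ensembl transcript. Its value ran from -0.21 to 0.12 when single arrays were left out. Its 3 other probes did not pass the filter.

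Markers of macrophages and monocytes, cells that carry NOX2, had lower values in diabetes. *Cybb* was lower on average too, but its lowest values were those of D replicate 1 and D + P replicate 1. All 9 of 10 markers that were tested were lower in diabetes, both without and with pargyline and on average, with 0 past the adjusted threshold and 7 at an unadjusted p under 0.05 on average, where 5.53% of all genes were lower at that level. In the averaged contrast the lowest value was -0.96, for *Cd163*, a scavenger receptor. Their mean log2 level was 9.61 to 9.997 in C and 9.65 to 10.14 in C + P, against 9.18 to 9.57 in D and 9.17 to 9.39 in D + P. Their part in the *Cybb* values was not tested. Neutrophil markers averaged 9.82 to 10.50 in C + P against 8.69 to 9.43 in the other groups, led by *S100a8* at 2.09 in C + P versus C (0 of 4 tested past the adjusted threshold), and the part of these cells in the C + P values was not tested either. Of the red blood cell markers, *Slc4a1*, the anion exchanger of the red cell membrane, was at 1.73 in C + P versus C (adjusted p = 0.186 in limma). In D + P versus C + P it was at -1.94 (adjusted p = 0.0823 in limma). Of the 5 tested, 3 were higher and 2 lower in C + P versus C, with a median change of 0.04. In D + P versus C + P 1 was higher and 4 lower, with a median of -0.20, and 0 were past the threshold. The part of *Slc4a1* in the C + P and *Gstt1* values was not tested.

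*Msra*, which reduces oxidised methionine in proteins (chr14:64741485-64741544), measured 10.78, 11.33 and 11.38 in C, 11.63, 11.32 and 11.05 in C + P, then 11.56, 11.32 and 11.42 in D and 10.38, 11.01 and 11.51 in D + P. All groups overlapped. The averaged change was -0.05 ± 0.20 (SE; adjusted p = 0.949 in limma), and it changed sign when single arrays were left out.

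**Figure D3:**
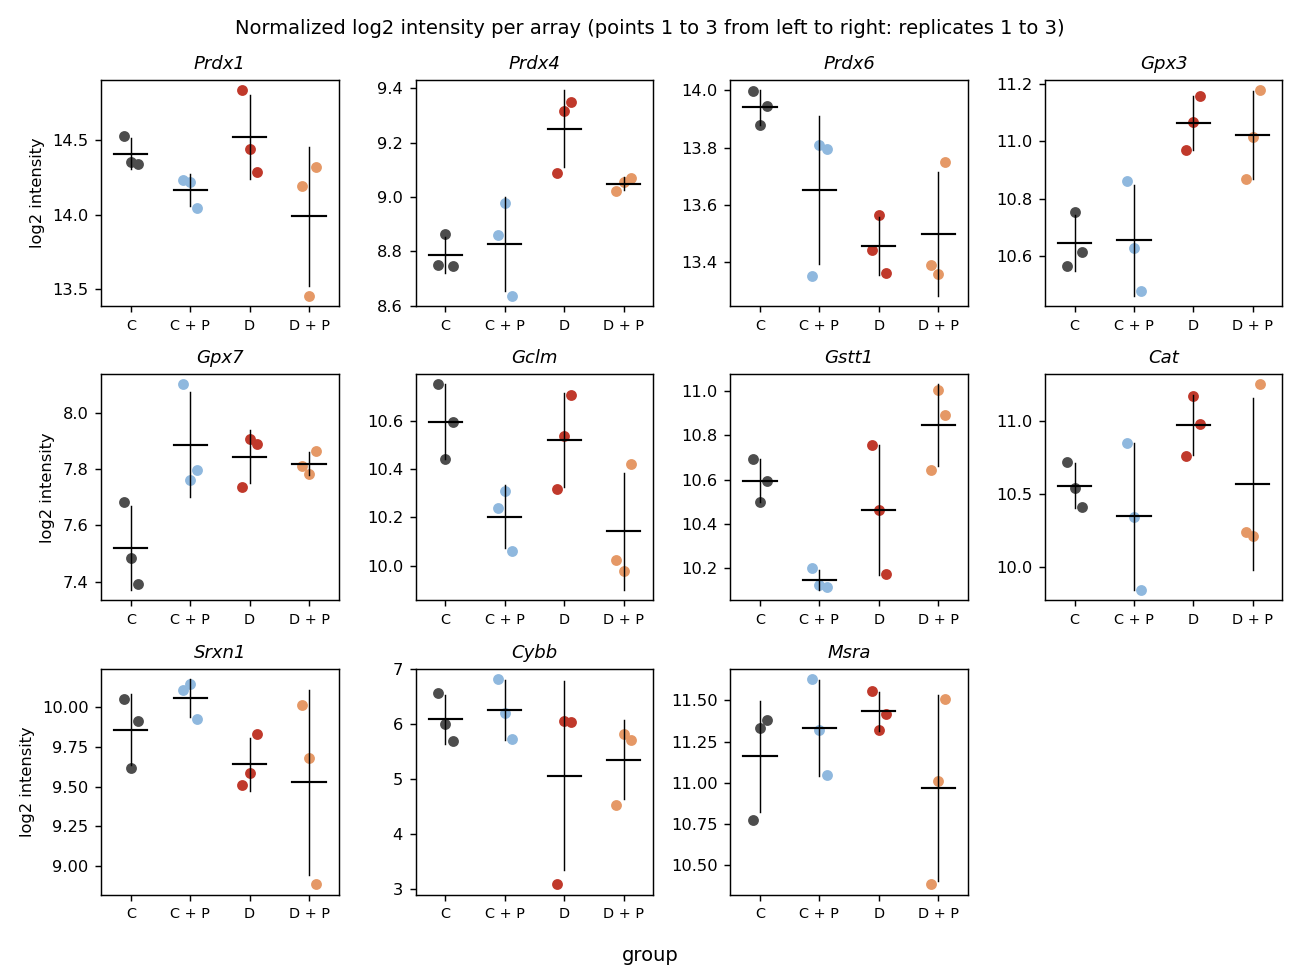
Normalized log2 intensity (y axis, a scale per gene) of the 11 genes given array by array, for the 4 groups on the x axis. Points are replicates 1 to 3 from left to right, horizontal lines group means and vertical lines SD (n = 3). In *Prdx4* and *Gpx3* all diabetic hearts lie above all non-diabetic hearts, and *Cybb* shows 1 low array in D at 3.08.

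The diabetes change could be read separately without and with pargyline, on arrays that the 2 contrasts do not share. The sign was the same in both for 20 of the 40 genes, or 50%, against 54.8% of all genes. *Gpx3*, *Prdx4*, *Cat*, *Nfe2l2* and *Cybb* were among those with the same sign, and *Gstt1*, *Nox4*, *Ncf1*, *Gpx1* and *Msra* among those with opposite signs. The interaction of *Nox4* was 1.00, that of *Gpx1* -0.47, and neither passed the threshold.

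**Figure D4:**
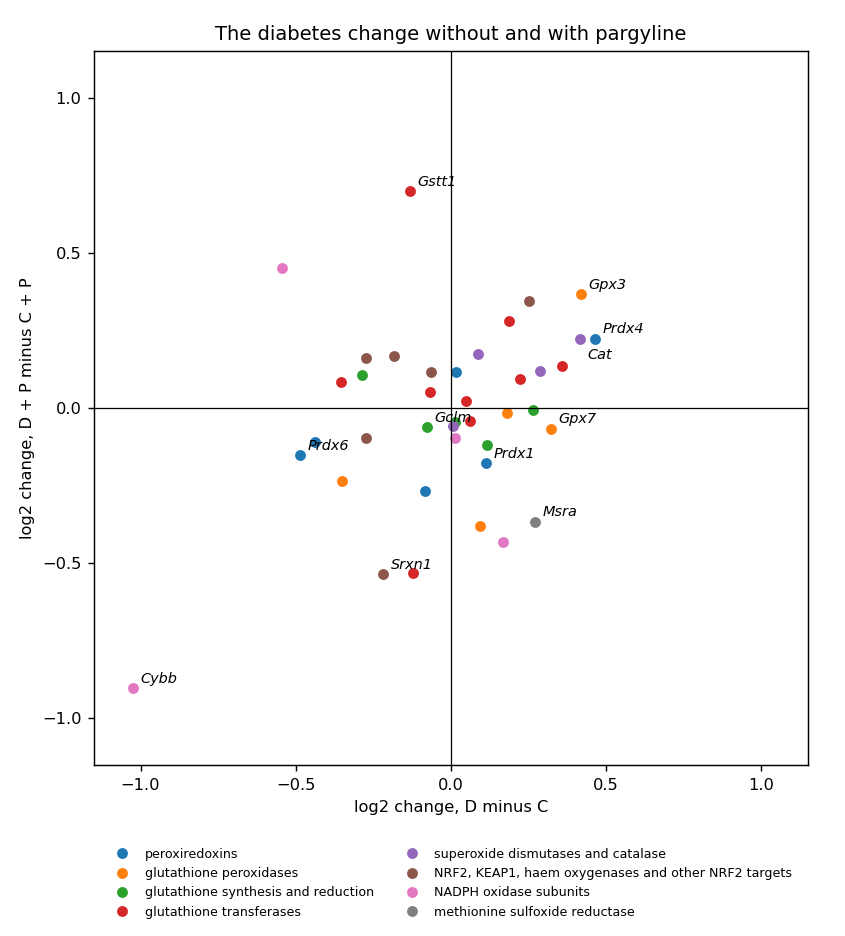
Log2 change in D minus C (x axis) against that in D + P minus C + P (y axis) for the 40 genes, coloured by family, with the 11 genes given array by array named. *Gpx3*, *Prdx4* and *Cat* lie above 0 on both axes, *Gstt1* high on the y axis at 0.70 and below 0 on the x axis, and *Cybb* below 0 on both.

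C + P replicate 1 held the highest value of 9 of the 40 genes, C + P replicate 3 the lowest of 11, and D replicate 1 the highest of 6 and the lowest of 7. On D replicate 1 the highest were *Prdx1*, *Gsr*, *Gstm1*, *Gstk1*, *Mgst3* and *Sod1*, and the lowest *Prdx5*, *Gpx4*, *Gstm2*, *Keap1*, *Hmox2*, *Nqo1* and *Cybb*. There were 18 further tested probes, for 16 of the 40 genes. Their averaged diabetes change had the opposite sign to that of the brightest probe in 5 of the 18, and their D versus C change in 7. In D + P versus D, 4 of these 18 probes had an unadjusted p under 0.05, 1 each for *Ncf1*, *Cybb*, *Cyba* and *Mgst3*, with a smallest adjusted p of 0.213 in limma, where 4099 of all 30859 tested probes had such an unadjusted p. These were well above background on 2, 2, 3 and 6 of the 12 arrays.

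**Figure D5:**
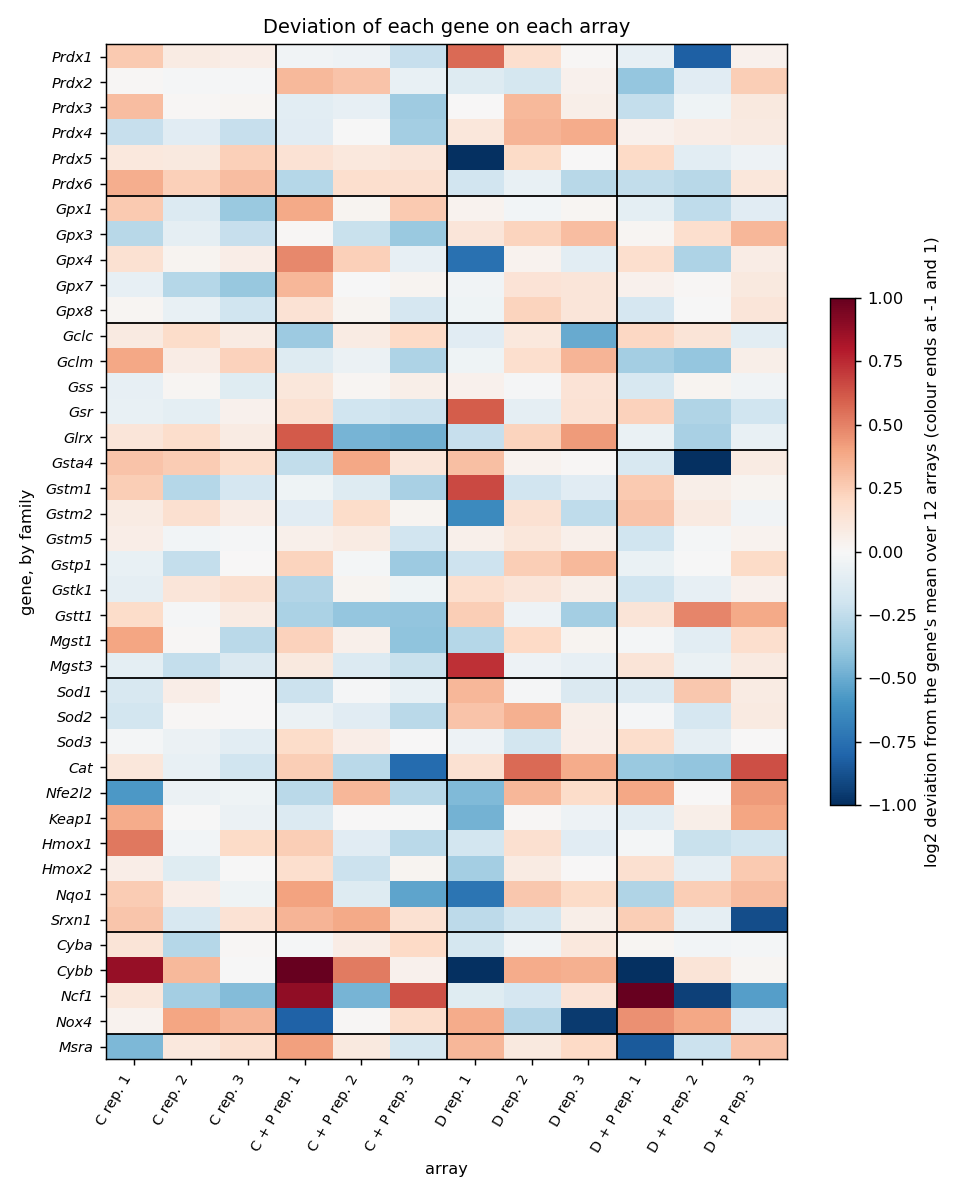
Deviation of each of the 40 genes (rows, grouped by family) from its own mean over the 12 arrays (columns, grouped as C, C + P, D and D + P), in log2 units. Red is above and blue below the mean, and colours stop at -1 and 1. D replicate 1 holds several of the strongest colours, and the rows of *Cybb*, *Ncf1* and *Nox4* vary most.

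The wider pathway comprised 67 more genes in 7 lists, of which 60 were tested. None passed the adjusted threshold in any of the 6 contrasts (limma), and the smallest adjusted p was 0.0759. In the averaged diabetes contrast 21 were higher and 39 lower, with a median change of -0.11. At an unadjusted p under 0.05, 5 of the 60 were higher and 6 lower, against 6.15% and 5.53% of all genes. That smallest p was for *Gsta2*, an alpha-class glutathione transferase, which measured 9.20, 9.19 and 9.25 in C and 8.01, 8.02 and 8.44 in D. In C + P it measured 9.25, 8.79 and 8.79 and in D + P 8.63, 7.91 and 8.24. All 6 diabetic hearts lay below all 6 non-diabetic hearts, by -1.06 ± 0.22 (SE) without pargyline and -0.87 ± 0.15 on average.

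The other 20 tested glutathione genes reached up to 0.58 for *Gstm7* in the averaged contrast. Of 13 other NRF2 targets 4 were higher and 9 lower, from -0.44 for *Ftl1*, the ferritin light chain, to 0.11 for *Me1*, malic enzyme. Of 5 NRF2 partners and repressors 1 was higher and 4 lower, with *Maff*, a small MAF protein, at -0.39 and *Mafk* at 0.04. *Maff* also had the largest C + P minus C change of the list, 1.01 (adjusted p = 0.855). The 4 thioredoxins and reductases ran from -0.16 for *Txnrd2*, the mitochondrial reductase, to 0.16 for *Txn1*. The 3 other methionine sulfoxide reductases ran from -0.51 for *Msrb1* to 0.05 for *Msrb3*. Among 8 other NADPH oxidase genes the highest was *Noxo1* at 0.46, and the probe with the lowest fitted value, that of *Nox1*, had signal well above background in 0 of 12 hearts, so that no change is given for it. Of 6 other sources of oxygen radicals 1 was higher, *Maob*, a monoamine oxidase and so a target of pargyline, at 0.29, and *Aox1*, aldehyde oxidase, was lowest at -0.27.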

How the data were processed

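Total RNA (200 ng per heart) was labelled with Cy3 by the authors and hybridised to single-colour Agilent mouse arrays, 12 in all, 3 mice per group. The deposited scanner output holds linear, background-subtracted intensity for every spot, from Feature Extraction, version 12.0.0.7 per the file headers (the study's methods name another version), with quality flags. Intensity that the authors had quantile normalized was deposited as a series-wide table and served as an alternative only.

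Here the scanner intensity was log2 transformed, outlier spots were set to missing, and spots were quantile normalized over the 12 arrays. Spots that repeat a probe were combined as their mean. A probe was tested where 50% or more of each group's arrays had positive and significant signal, a limit taken from the study's methods, which left 30859 of 56605 probes. A gene was represented by its brightest such probe. Levels of different probes were not compared. Groups came from the sample labels. The linear model of limma 3.58.1 (R 4.3.3) had a mean for each group and 8 residual degrees of freedom, with eBayes moderation. Two-sided p-values were adjusted by Benjamini-Hochberg over all tested probes. Background shares were counted over the brightest probe of each of 16560 gene symbols. Precision is limited by 3 hearts per group, for which exact permutation could not give p below 0.1. The fit was tested on simulated data. Promoters were searched and figures drawn with Python 3.11.15 and matplotlib 3.10.9.

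The gene lists and alternatives were chosen with earlier results of these data known. A member was given array by array where its unadjusted p was under 0.05 in any contrast. In a family without such a member, the one with the largest averaged diabetes change was given. Of other lists the largest rise and fall were named. Of the 66 probes of the members 58 were tested, and 54 matched a RefSeq accession, 2 of them with a further gene. RefSeq tables (GRCm38.p6) were used for names and promoters only. Same-numbered arrays did not deviate together, so numbers were not taken as pairs.

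Alternatives were another scaling (75th percentile), normexp background correction (offset 50), the authors' table, other filters, array weights, an intensity trend in the variance prior, only the groups compared, the methods' t-test, replicate number, slide and slide column as blocks, the mean of a gene's probes, and leaving out each array.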

Additional observations from a re-analysis of the deposited data

How the results depend on the processing

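The number of the 40 genes past an adjusted p of 0.05 stayed 0 in all 6 contrasts under each of the 24 to 26 alternatives run per contrast. The methods' t-test and the fit of only 2 groups have no averaged contrast, and slide as a block was fitted for that contrast only. With each array left out in turn the count ranged from 0 to 0. Counts at an unadjusted p under 0.05 moved more: array weights, which gave D replicate 1 a weight of 0.24, raised them from 3 to 9 in D versus C, from 2 to 4 in D + P versus C + P, from 4 to 8 in the averaged diabetes change and from 1 to 6 in D + P versus D. The share of all genes went from 10.2% to 18.2%, 7.83% to 10.6%, 11.7% to 18.3% and 12.1% to 12.2%. In C + P versus C array weights gave 4, and the share went from 4.43% to 14.3%. With single arrays left out, counts ran from 2 to 5 in D versus C, 0 to 3 in C + P versus C and 0 to 5 in D + P versus D. The shares of all genes then ran from 5.85% to 12.2%, 2.75% to 5.85% and 9.63% to 13.8%. Over the alternatives the averaged change of *Gpx3* ran from 0.33 to 0.51, that of *Prdx4* from 0.30 to 0.49, and the interaction of *Gstt1* from 0.68 to 1.10, the last with an adjusted p from 0.21 to 0.985. The averaged change of *Cybb* ran from -1.22 to -0.12, that of *Cat* from 0.15 to 0.58 and that of *Srxn1* from -0.50 to -0.22. Over all probes, calls depended more on the setting: array weights called 279 in D versus C and 348 in the averaged contrast, where the reported fit called 2 and 33, and the block on replicate number called 0 and 4.

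Alternatives were run for 18 values, those that put the 11 genes given array by array in the text. Their direction held under each alternative run except for the averaged change of *Msra*, which was 0.0295 with slide column as a block, 0.0069 without C replicate 3, 0.0268 without C + P replicate 1, 0.0989 without D + P replicate 1 (leaving out single arrays gave -0.183 to 0.0989) and 0.142 without the 3 arrays in column 1 of the slides, the last an alternative chosen after seeing the data. The cause was not tested.

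Replicate numbers are shared by all groups, but deviations of same-numbered arrays from their group means correlated at 0.01 on average (from -0.20 to 0.20, 4 of 18 pairs over 0.1), so that the numbers do not pair the mice. With the replicate number as a block 0 genes passed, and 1 in place of 2 had an unadjusted p under 0.05 in D + P versus C + P. The share of all genes there was 7.37% in place of 7.83%. Among the brightest probes, signal near background limits *Cybb* and *Ncf1*, 2 of the 40 genes; the other 38 were well above it on all 12 arrays.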

Other observations

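Other cell types were measured with the same arrays. Markers of fibroblasts averaged 11.73 to 11.77 in D and 11.60 to 11.74 in D + P, against 11.57 to 11.62 in C and 11.46 to 11.55 in C + P, so that the list mean of the diabetic arrays lay above that of their controls. The markers went both ways in the averaged contrast, 3 higher and 2 lower, from -0.22 for *Col1a1* to 0.45 for *Pdgfra*, with 0 past the adjusted threshold. Endothelial markers averaged 10.60 to 11.04 in D + P, which overlapped the 10.31 to 10.78 of the other groups. Red blood cell markers averaged 11.86 to 12.42 in C + P, against 11.58 to 12.09 in the other groups. They went both ways in C + P versus C, 3 higher and 2 lower. The median change was 0.04 and the largest 1.73, for *Slc4a1*. Of the 5 fat cell markers 3 were tested and 3 were well above background on no array.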
